A study of Mus musculus with 23 samples.

Results

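Sulforaphane (SFN)-fed astrocytes that had lost Aldh7a1 were compared with astrocytes of untreated control mice, using 10 of the 23 RNA-sequencing libraries of the study. The comparison asks how close to the control transcriptome the deleted astrocytes stood after the diet. The study applied its rescue criteria to gene sets from an enrichment analysis. A set had to differ between cKOAstro and ConAstro, not differ between SFN-fed cKOAstro and ConAstro, and respond to SFN differently in the 2 genotypes. The tests here are of single genes. In the study few single genes differed between cKOAstro and ConAstro, so a lack of called genes here does not speak to rescue. ConAstro mice (n = 4) were Aldh7a1 Flox/Flox without Cre on the control diet. SFN-fed cKOAstro mice (n = 6) were Aldh7a1 Flox/Flox and Slc1a3-CreER/+ and ate SFN from postnatal day 21 to day 70. Both groups received 4-hydroxytamoxifen at postnatal days 3 to 4, were male, and were killed at day 70, with 1 cerebral cortex library per mouse. The 2 groups thus differ in the deletion, in the CreER allele and in the diet, and these cannot be told apart in this comparison. CreER is driven from the Slc1a3 locus, which is active in astrocytes and also in other glial cells, and recombination removes exons 4 and 5, so a gene-level count of Aldh7a1 also holds reads from exons that remain. Astrocytes were collected with magnetic beads against ACSA-2, the product of Atp1b2, so the sorted antigen is itself among the genes measured.

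A seventh SFN-fed cKOAstro library, replicate 2, was left out because its Aldh7a1, Slc1a3 and Esr1 counts were those of the control genotype. These 3 genes chose the libraries, so their values are given as a description with no test. SFN-fed ConAstro replicate 1, which is not part of the comparison, had the converse values, 55.8 CPM (counts scaled to the library size) of Aldh7a1, 2100 CPM of Slc1a3 and 20 CPM of Esr1. The name of the library left out has the number prefix of the ConAstro libraries, and that of SFN-fed ConAstro replicate 1 starts with Astro. The total count and first principal component of the library left out, given below, lay within the range of SFN-fed cKOAstro libraries named Astro. Whether the labels of these 2 libraries were exchanged was not tested and is not known. The genotype of the library left out is therefore uncertain wherever its values are given.

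ALDH7A1 oxidises the aldehyde that arises from lysine in the pipecolic acid and saccharopine pathways, and its loss in humans causes pyridoxine-dependent epilepsy, in which the accumulating metabolites inactivate vitamin B6. SFN, an isothiocyanate from broccoli sprouts, modifies KEAP1, the protein that holds the transcription factor NRF2 (gene Nfe2l2) for degradation. Freed NRF2 pairs with small MAF proteins at antioxidant response elements and raises genes of glutathione and thioredoxin metabolism. Astrocytes carry much of the NRF2 activity of the brain, and they clear K+ and glutamate from the extracellular space with Kir4.1 (Kcnj10), the Na,K-ATPase and glutamate transporters.

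The core of the antioxidant response element, TGACNNNGC, was searched on both strands of RefSeq promoter windows (GRCm38.p6, 250 bases before to 50 after each start). It was present in a window of 9 of the 24 NRF2 targets with a window (37.5%), of 4 of the 9 NRF2 regulators (44.4%) and of 14% of all 27025 genes with a window. Some genes have several starts and so several windows, 5 targets had no window, and a match is a description of the letters only. The single window of Nqo1, a much used target, held no match. The 4 stretches below are shown because they hold the core in genes whose levels are given later, the factor itself, its MAF partner and 2 targets. Capitals mark the core, and each is printed on the strand that reads it, 29 bases long.
Nfe2l2 (chr2:75704885-75704913, gene on the minus strand, core 232 bases before the start, same strand): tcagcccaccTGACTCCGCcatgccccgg
Maff (chr15:79346499-79346527, gene on the plus strand, core 104 bases before the start, same strand): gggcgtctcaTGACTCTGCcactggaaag
Gclm (chr3:122245413-122245441, gene on the plus strand, core 126 bases before the start, opposite strand): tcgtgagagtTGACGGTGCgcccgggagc
Txnrd1 (chr10:82859104-82859132, gene on the plus strand, core 84 bases before the start, opposite strand): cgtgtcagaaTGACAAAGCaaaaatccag

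Depth and library names differed between the groups. Total counts lay between 74771451 and 84049525 in ConAstro and between 86276988 and 140464734 in SFN-fed cKOAstro, without overlap, and the mean log2 total was 0.43 higher in the latter (two-sided exact permutation test, p = 0.0143, smallest possible 0.00476). Among the numbered SFN-fed cKOAstro libraries alone the difference was 0.24 (exact permutation p = 0.0571, smallest possible 0.0286). The 4 ConAstro libraries share a name prefix with SFN-fed cKOAstro replicates 1 and 7, while replicate 3 has another number and replicates 4, 5 and 6 have Astro names. The meaning of the names is not stated. The astrocyte marker Aldh1l1 was high in every library, at 291 to 374 CPM in ConAstro and 318 to 437 CPM in SFN-fed cKOAstro. Its log2 fold change of 0.115 was the highest of 12 astrocyte markers, and the lowest was -0.343 for Slc1a2. The median of the 12 was 0.04, with 7 above 0 and 5 below. CPM is the count scaled to the library size after trimmed-mean (TMM) normalization, and differences are log2 fold changes of SFN-fed cKOAstro over ConAstro from edgeR's quasi-likelihood fit, ± SE.

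The 3 genes that chose the libraries are given first. Aldh7a1 (chromosome 18, 56509687 to 56572951, GRCm38, minus strand, protein-coding) measured 222, 207, 212 and 217 CPM in ConAstro replicates 1 to 4. In SFN-fed cKOAstro it measured 43.1 CPM in the lowest library, 49.3 at the median and 57.8 in the highest, and the groups did not overlap. The library left out held 221 CPM, inside the control range. The fitted difference was -2.10 ± 0.08, which leaves 0.233 of the control level.

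Slc1a3, which encodes the glutamate transporter GLAST and whose locus carries CreER, measured 4850, 4330, 3990 and 4960 CPM in ConAstro. It ranged from 1600 through a median of 2200 to 2760 CPM in SFN-fed cKOAstro, a difference of -1.05 ± 0.15, and was 4420 CPM in the library left out. Esr1, the estrogen receptor alpha gene, measured 0.96, 0.65, 0.99 and 0.76 CPM in ConAstro and 17.2 to 24.1 CPM, median 21, in SFN-fed cKOAstro. Part of the CreER protein derives from an estrogen receptor, and from counts per gene it cannot be seen if transcripts of the transgene were assigned to Esr1. The library left out had 0.53 CPM. The groups did not overlap for any of the 3 genes, as the choice of libraries required.

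**Figure D1:**
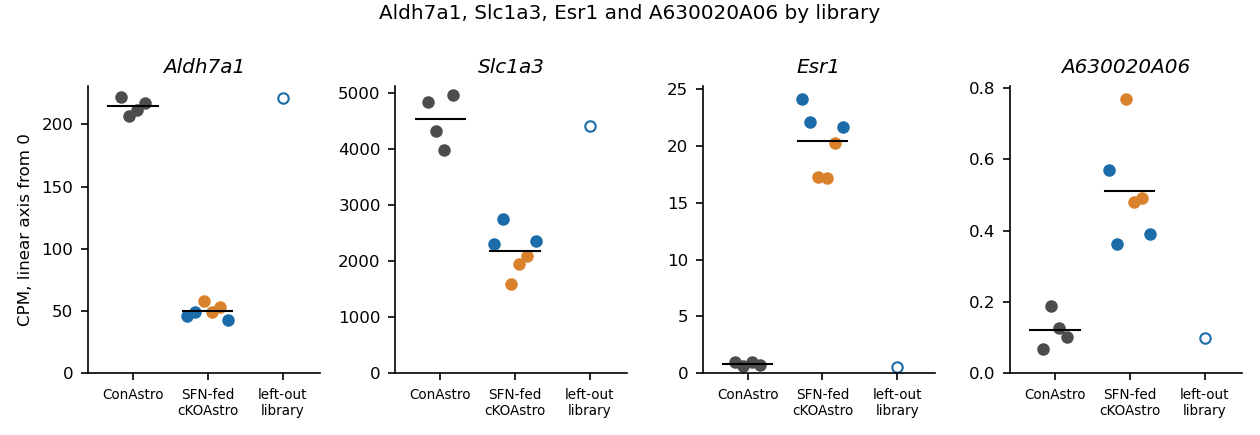
Level of 4 genes in each library, in CPM on linear axes from 0. Grey points are ConAstro (n = 4), filled points SFN-fed cKOAstro (n = 6, blue for numbered and orange for Astro names), the open point the library left out, and lines are group means. The first 3 genes chose the libraries, and for A630020A06, which did not, the 6 points at 0.364 to 0.771 CPM also lie above every control.

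Outside the 3 genes that chose the libraries, no gene differed at an adjusted p under 0.05. Of 16623 genes in the fit, 2 were below this threshold (0.012%), both among the 3 that chose the libraries, from which nothing is read. The lowest adjusted p of any other gene was 0.418 (edgeR, Benjamini-Hochberg). At an unadjusted p under 0.05, 482 genes had higher values in SFN-fed cKOAstro (2.9%) and 427 lower (2.57%). With all 7 libraries as labelled, no gene of 16753 passed (0%), while 1453 were at an unadjusted p under 0.05 in edgeR, 672 with higher and 781 with lower values. DESeq2 called 6 genes beside the 3, A630020A06, AI507597, E030003E18Rik, Gm16386, Rrs1 and Utp14b, and limma-voom with quality weights called none beside them.

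For most well-measured genes the data bound the difference. The 95% interval lay wholly within 1.5-fold either way for 9517 genes (57.3% of those tested), and for 67% of the 14152 genes with a mean of 1 CPM or more. The median SE was 0.157, larger than the median absolute log2 fold change of 0.138. Counts were simulated with the sizes and gene-wise spread of these libraries. Among 16505 genes, 50.5% of genes changed 2-fold and 11% of genes changed 1.5-fold were recovered, so many such changes would be missed at this sample size. The 95% interval held the true value for 96% and 91% of these genes, and 4 unchanged genes were called. Genes were drawn independently, so differences that many genes share within a library were absent from the simulation.

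The 5 further genes that the study named for cKOAstro on the control diet were looked at next, beside their values in the 7 cKOAstro libraries. Those libraries are compared with the same 4 ConAstro libraries, so the paired values share their controls. The genes were picked by the study on these libraries and are not independent evidence of a direction.

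A630020A06 is a long non-coding RNA, listed in RefSeq as Gm2093 (GRCm38.p6, chromosome 15, 3996039 to 4015858), and lies 4.62 Mb from Slc1a3, on the same chromosome as the CreER allele. It measured 0.068, 0.19, 0.13 and 0.10 CPM in ConAstro and 0.364 to 0.771 CPM, median 0.487, in SFN-fed cKOAstro. All 6 libraries exceeded every control, as did those of 0.77% of all genes tested, and 0.541% had all 6 below. The difference was 2.07 ± 0.35 (edgeR adjusted p = 0.418), and cKOAstro stood 2.47 ± 0.27 above ConAstro. The library left out measured 0.10 CPM, in the control range. Of 53 other genes tested within 10 Mb of Slc1a3, 4 were higher and 2 lower at an unadjusted p under 0.05, against 2.9% and 2.57% of all genes, and none separated the groups.

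Acer2, an alkaline ceramidase of the Golgi, measured 11.1, 13.4, 12.6 and 12.6 CPM in ConAstro and 9.21 to 20.2 CPM, median 11.9, in SFN-fed cKOAstro. Of the 6 libraries 3 lay below and 3 above every control. Its difference was 0.07 ± 0.21 (edgeR adjusted p = 0.952), against -0.40 ± 0.08 in cKOAstro. Vsig2, an immunoglobulin-domain membrane protein, was at -0.54 ± 0.35 (adjusted p = 0.746), against -0.69 ± 0.15 in cKOAstro. Foxd1, a forkhead transcription factor, was at 0.26 ± 0.21 (adjusted p = 0.78), against 0.74 ± 0.16. Echdc3, an enoyl-CoA hydratase-like mitochondrial protein, was at 0.29 ± 0.15 (adjusted p = 0.74), against 0.42 ± 0.11. The estimates for these 4 genes are nearer to 0 than in cKOAstro, but the SEs are larger as well, and whether the 2 comparisons differ was not tested. The genes were picked for their difference in cKOAstro against these controls, so smaller estimates in another group can follow from the choice.

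The Na,K-ATPase exchanges intracellular Na+ for extracellular K+ and is a dimer of a catalytic alpha and an accessory beta subunit. The 3 beta subunits are described here, and none passed the test between SFN-fed cKOAstro and ConAstro. The study had singled out the Na,K-ATPase on these libraries, so the values are not independent evidence.

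Atp1b2, the beta subunit that carries the sorted ACSA-2 antigen, measured 2790, 2530, 2110 and 2670 CPM in ConAstro and 1900 to 2990 CPM, median 2380, in SFN-fed cKOAstro. The groups overlapped, with 1 of 6 libraries below and 1 above every control, and the difference was -0.06 ± 0.14 (interval -0.37 to 0.24, edgeR adjusted p = 0.928). Atp1b1, the widely expressed beta subunit, was at 0.03 ± 0.15 (-0.30 to 0.36). For both a 1.5-fold change in either direction, which is 0.585 on the log2 scale, lay outside the interval. Atp1b3 was at 0.30 ± 0.20 (-0.14 to 0.74), and its highest library was replicate 4 with 536 CPM, against 236 to 323 CPM in the other 5. Among the numbered libraries alone Atp1b3 was at 0.04.

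The 8 2-pore K+ channels, which carry background K+ current, had a median of 0.05 with 6 values above 0 and no member at an unadjusted p under 0.05. Kcnk1 (TWIK1), measured at 340 to 368 CPM in ConAstro and 268 to 457 CPM in SFN-fed cKOAstro, was at 0.03 ± 0.13 (-0.26 to 0.33, edgeR adjusted p = 0.963). For only 3 of the 8 did the interval lie within 1.5-fold.

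Genes for K+ and water buffering had a median below 0, and none passed the test. The median of 10 genes was -0.14, with 6 values below 0 and 4 above, against 50.9% of all genes above 0. Kcnj10 (Kir4.1), the main inward rectifier of astrocytes, measured 929, 979, 862 and 975 CPM in ConAstro and 606 to 957 CPM, median 814, in SFN-fed cKOAstro, with 3 of 6 libraries below every control. Its difference was -0.22 ± 0.13 (-0.50 to 0.05, edgeR adjusted p = 0.74). Slc4a4, the Na+-bicarbonate cotransporter NBCe1, had the lowest unadjusted p of the list (0.0535), at -0.39 ± 0.18, with 5 of 6 libraries below every control. Aqp4, the water channel of astrocyte endfeet, was at -0.33 ± 0.19, and Kcnj16, the partner of Kcnj10, at -0.25 ± 0.14. Without replicates 1 and 4 the list median was -0.05, and relative to genes of the same exon length it was -0.06.

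Glutamate handling also had a median below 0, at -0.18 over 10 genes, and -0.09 relative to genes of the same exon length. Of the 10 genes 7 lay below 0 and 3 above, against 50.9% of all genes above 0, and none had an unadjusted p under 0.05. Slc1a2 (GLT-1), the main glutamate transporter of the adult cortex, measured 12700, 11400, 9640 and 12600 CPM in ConAstro and 6150 to 13100 CPM, median 8240, in SFN-fed cKOAstro. Of 6 libraries 4 lay below every control and 1 above, and the difference was -0.34 ± 0.21 (edgeR adjusted p = 0.742). Slc38a3, a glutamine transporter, was at -0.21 ± 0.12. Among the numbered libraries the list median was -0.06, in the Astro-named libraries -0.33, and without replicates 1 and 4 it was -0.03. In bulk libraries fewer astrocytes and less RNA per astrocyte cannot be told apart.

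**Figure D2:**
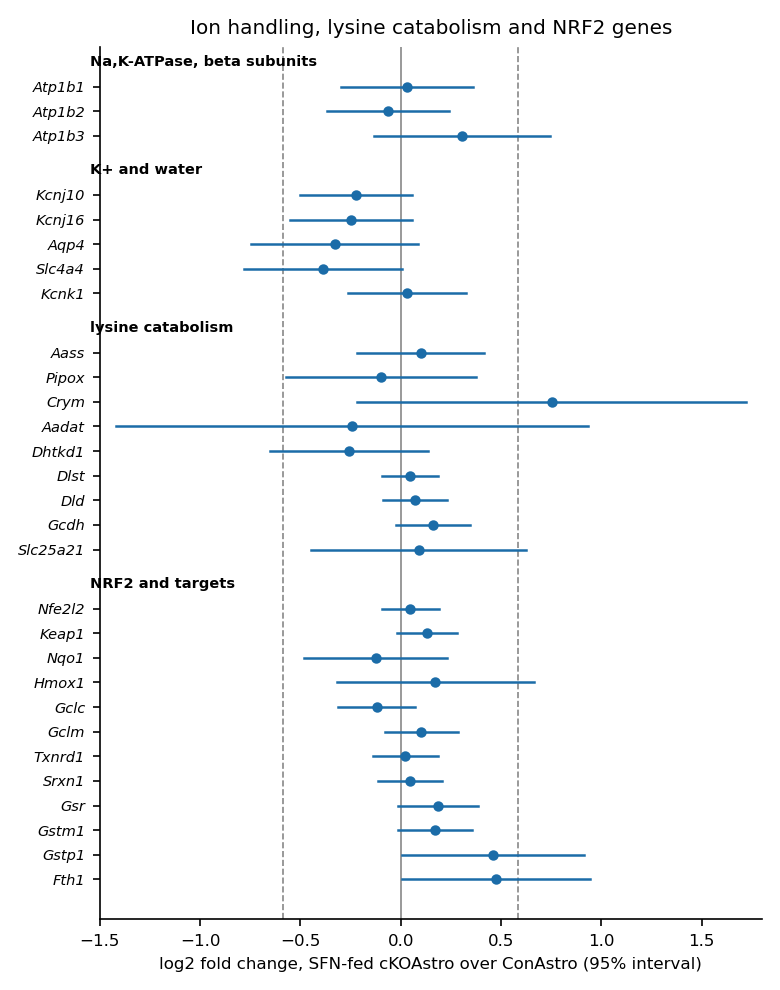
Log2 fold change of SFN-fed cKOAstro (n = 6) over ConAstro (n = 4) with its 95% interval for genes of ion and water handling, lysine catabolism and the NRF2 system. Dashed lines mark a 1.5-fold change either way, and most intervals, including those of Atp1b1 and Atp1b2, lie between them and span 0.

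Aldh7a1 helped to choose the libraries and is given no test. No other gene of lysine catabolism passed the test or had an unadjusted p under 0.05. Aass, which starts the saccharopine branch, was at 0.10 ± 0.14, Pipox, the pipecolate oxidase, at -0.10 ± 0.21, and Crym, the ketimine reductase of the pipecolate branch, at 0.75 ± 0.44 (edgeR adjusted p = 0.74). Crym was scattered, at 8 to 23.8 CPM in ConAstro and 10.6 to 58 CPM in SFN-fed cKOAstro, and among the numbered libraries its difference was 0.10. Downstream of the deleted step, Aadat, listed at under 0.4 CPM in every library, was at -0.24 ± 0.53, Dhtkd1 at -0.26 ± 0.18 and Gcdh, the glutaryl-CoA dehydrogenase, at 0.16 ± 0.08. The shared dehydrogenase subunits Dlst and Dld were at 0.04 ± 0.06 and 0.07 ± 0.07, and the carrier Slc25a21 at 0.09 ± 0.24.

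The vitamin B6 list had a median of 0.23 over 5 genes with 4 above 0, none at an unadjusted p under 0.05. Leaving out SFN-fed cKOAstro replicate 5 brought this median to 0.07, and it was 0.07 in the numbered libraries and 0.08 relative to genes of the same exon length. Prosc (Plpbp in RefSeq), a pyridoxal phosphate binding protein, was at 0.27 ± 0.14, and at 0.07 among the numbered libraries. Among 16 other aldehyde dehydrogenases tested, the median was 0.05 and 1 had an unadjusted p under 0.05, on the lower side, where 2.57% of all genes stood. That gene was Aldh1a1, which makes retinoic acid and oxidises lipid aldehydes, and which overlaps C730002L08Rik on the opposite strand. It measured 68.1, 56.4, 68.8 and 64.9 CPM in ConAstro and 38.1 to 56.9 CPM, median 49.6, in SFN-fed cKOAstro, where 5 of 6 libraries lay below every control. Its difference was -0.43 ± 0.12 (edgeR unadjusted p = 0.00401, adjusted p = 0.74).

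No NRF2 target passed the test at day 70, and most single targets stood close to the control level. Over 29 genes the median was 0.06, and 19 lay above 0 against 50.9% of all genes. Of the 29, 2 had higher values at an unadjusted p under 0.05, against 2.9% of all genes. For 22 of the 29 the interval lay within 1.5-fold, against 57.3% of all genes. In the numbered libraries 23 of 29 lay above 0, against 46.9% of all genes there, with a median of 0.10, and with all 7 libraries the median was 0.04. The summed level of the 29 genes was 5050, 5250, 4930 and 5100 CPM in ConAstro and 5100 to 7810 CPM, median 5800, in SFN-fed cKOAstro, and 5 of 6 libraries, all but replicate 3, lay above every control. Fth1, described below, makes up much of this sum. This theme had been examined on these libraries before.

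Among the most used readouts, Nqo1, the quinone reductase, measured 8.38, 10.8, 11.9 and 8.02 CPM in ConAstro and 6.46 to 10.3 CPM, median 9.25, in SFN-fed cKOAstro, a difference of -0.12 ± 0.16 (-0.48 to 0.23, edgeR adjusted p = 0.852). Hmox1, heme oxygenase 1, was at 0.17 ± 0.22 (-0.32 to 0.67), with 2 of 6 libraries above every control. The groups overlapped for both genes.

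The glutathione and thioredoxin enzymes were measured more tightly. Gclm, the modifier subunit of glutamate-cysteine ligase, whose promoter stretch is printed above, measured 67.3, 64.9, 69.2 and 64.4 CPM in ConAstro and 58 to 76.5 CPM, median 74, in SFN-fed cKOAstro. Its difference was 0.10 ± 0.08 (-0.08 to 0.29). Gclc, the catalytic subunit, was at -0.12 ± 0.09 (-0.31 to 0.07). Txnrd1, thioredoxin reductase 1, also with a core printed above, was at 0.02 ± 0.07 (-0.14 to 0.18), and Srxn1, sulfiredoxin, at 0.05 ± 0.07 (-0.12 to 0.21). For these 4 genes the interval excludes a 1.5-fold change.

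The 2 targets at an unadjusted p under 0.05 were Fth1, the ferritin heavy chain, at 0.48 ± 0.21 (edgeR unadjusted p = 0.0472, adjusted p = 0.74), and Gstp1, a glutathione S-transferase, at 0.46 ± 0.20 (unadjusted p = 0.0481). Fth1 measured 1880, 1900, 1860 and 1720 CPM in ConAstro and 1610 to 4010 CPM, median 2470, in SFN-fed cKOAstro, and Gstp1 145 to 364 CPM against 150 to 186 CPM. For each gene 5 of 6 libraries lay above every control and replicate 3 lay below every control. In both genes the highest library was replicate 4, which also had the highest oligodendrocyte marker sum, 57000 CPM against 23900 to 32800 in the other 5. The part of those cells in the 2 values was not tested. Among the numbered libraries the differences were 0.11 and 0.18.

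Of the regulators, Nfe2l2 measured 72.2, 74.4, 69.8 and 70 CPM in ConAstro and 67.1 to 79.2 CPM, median 74.3, in SFN-fed cKOAstro, a difference of 0.05 ± 0.06 (-0.09 to 0.19, edgeR adjusted p = 0.861). Keap1 was at 0.13 ± 0.07, with 5 of 6 libraries above every control and replicate 3 below. Rbx1, the RING subunit of the ligase that KEAP1 recruits, measured 52.2 to 53.4 CPM in ConAstro and 53.5 to 68.4 CPM in SFN-fed cKOAstro, so that all 6 libraries exceeded the controls (0.21 ± 0.07, unadjusted p = 0.0137, adjusted p = 0.74). Sqstm1 (p62), which competes with NRF2 for KEAP1, was at 0.23 ± 0.10 (unadjusted p = 0.046). Maff, the small MAF partner, was at 0.33 ± 0.30.

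Of 17 peroxidases, superoxide dismutases and glutaredoxins, 15 had values above 0, against 50.9% of all genes, with a median of 0.12. Glrx5, the mitochondrial glutaredoxin of iron-sulphur cluster assembly, was the member at an unadjusted p under 0.05 (0.24 ± 0.11, adjusted p = 0.74). Prdx3, the mitochondrial peroxiredoxin, was at 0.15 ± 0.08 and Sod1, the cytosolic dismutase, at 0.19 ± 0.12. Without replicates 1 and 4 the median was 0.01.

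Genes of ribosomes and mitochondria leaned to slightly higher values. All 81 cytosolic ribosomal proteins tested, all 35 NADH dehydrogenase (complex I) subunits, all 38 subunits of complexes II to V and 76 of 77 mitochondrial ribosomal proteins had log2 fold changes above 0, against 50.9% of all genes. Their medians were 0.20, 0.16, 0.15 and 0.16, against 0.0047 for all genes. None of these genes passed an adjusted p of 0.05, and 6, 6, 1 and 9 had higher values at an unadjusted p under 0.05, against 2.9% of all genes. The groups did not overlap for 1, 2, 1 and 2 members of the 4 lists, against 0.77% of all genes. In the numbered libraries alone the medians were 0.29, 0.16, 0.19 and 0.13, with 80, 35, 38 and 72 members above 0. The complex I direction had been seen on these libraries before, so it is not independent evidence, and genes of 1 complex are not independent of each other.

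Rpl7, of the large ribosomal subunit, was the single cytosolic ribosomal gene whose groups did not overlap. It measured 154, 153, 158 and 153 CPM in ConAstro and 162 to 217 CPM, median 173, in SFN-fed cKOAstro. The difference was 0.24 ± 0.09 (edgeR unadjusted p = 0.0276, adjusted p = 0.74). Ribosomal protein genes have many near-identical pseudogenes, so their counts are uncertain.

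Mrps34, of the small mitochondrial ribosomal subunit, measured 28.7, 29.5, 28.5 and 30.2 CPM in ConAstro and 31.6 to 42.2 CPM, median 34.5, in SFN-fed cKOAstro (0.27 ± 0.09, unadjusted p = 0.0109). Ndufa2, a complex I subunit, measured 41.1, 37.3, 40.8 and 36.2 CPM in ConAstro and 41.4 to 62 CPM, median 43.4, in SFN-fed cKOAstro (0.30 ± 0.13). Uqcrb, of complex III, went from 34 to 34.6 CPM in ConAstro to 35.4 to 48.2 CPM, median 37.7 (0.22 ± 0.10). These 3 genes are among the 5 of their lists whose groups did not overlap, and replicate 1 held the highest value in each. Each of the 3 overlaps another gene on the opposite strand in GENCODE M21, and Mrps34 also Nme3 on the same strand. Whether counting used the strand is not stated, so these counts are uncertain.

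Protein folding genes (chaperonin, prefoldin and related chaperones) had a median of 0.16, with 28 of 29 above 0 and 3 at an unadjusted p under 0.05, led by Pfdn6 (0.37 ± 0.13) and Cct7 (0.25 ± 0.10). Ribosome biogenesis genes had a median of 0.11, with 32 of 37 above 0 and 4 at an unadjusted p under 0.05. Of all genes 50.9% lay above 0 and 2.9% had higher values at an unadjusted p under 0.05. Genes of 1 complex are not independent of each other. Rrs1, which is needed for assembly of the large subunit, measured 33.5, 34.7, 34.6 and 33.7 CPM in ConAstro and 37.6 to 41.7 CPM, median 40.4, in SFN-fed cKOAstro. It was 0.24 ± 0.06 higher (edgeR unadjusted p = 0.00175, adjusted p = 0.74). Both lists follow themes that the study found on these libraries.

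**Figure D3:**
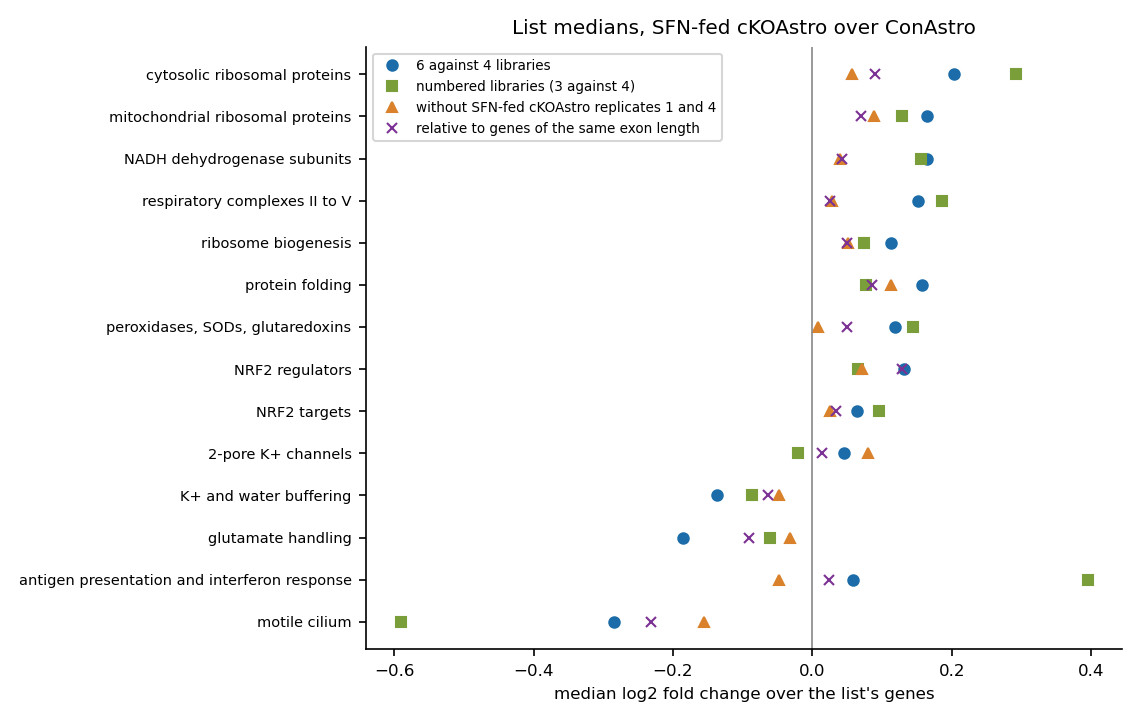
Median log2 fold change of each gene list, SFN-fed cKOAstro over ConAstro, in 4 forms. Circles are the 6 against 4 libraries, squares the 3 numbered SFN-fed cKOAstro libraries, triangles leave out SFN-fed cKOAstro replicates 1 and 4, and crosses are relative to genes of the same exon length. The ribosomal and respiratory lists stand at 0.15 to 0.20 as circles, at 0.13 to 0.29 as squares and at 0.03 to 0.09 as triangles and crosses.

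This lean went with gene length, and it was smaller without 2 libraries that were picked for a length index given below. Across 15981 genes with an annotated exon length the fold change and the length had a Spearman correlation of -0.332, given as a description, since genes share their libraries. With genes in 10 equal bins of length, the shortest bin (median 903.5 bases) had a median of 0.14 and the longest (8705 bases) a median of -0.16. The median decreased at every step from bin to bin. In cKOAstro against the same ConAstro libraries the correlation was -0.18. Most ribosomal and respiratory genes are short, with median exon lengths of 977, 1046, 1011 and 1363 bases for the 4 lists in the order above. Relative to the median of genes in the same bin of length, their medians were 0.09, 0.04, 0.03 and 0.07, with 78 of 81, 27 of 35, 28 of 38 and 68 of 77 members above 0. In the numbered libraries the same adjustment gave 0.19, 0.09, 0.10 and 0.07. With all 6 libraries that of protein folding genes was 0.09 and that of ribosome biogenesis genes 0.05.

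The difference between the shortest and the longest bin was also taken library by library, each gene relative to its mean over the 10 libraries. It was -0.26, -0.27, 0.01 and -0.17 in ConAstro replicates 1 to 4. In SFN-fed cKOAstro it was 0.66 in replicate 1, 0.32 in replicate 4, 0.12 in replicate 6, -0.03 in replicate 5, -0.15 in replicate 7 and -0.19 in replicate 3. The groups overlapped, and replicates 1 and 4 stood highest. Without these 2 libraries the medians were 0.06 for cytosolic ribosomal proteins, 0.04 for complex I, 0.03 for complexes II to V, 0.09 for mitochondrial ribosomal proteins, 0.11 for protein folding and 0.05 for ribosome biogenesis. They stayed above 0 but, except for protein folding, were over 1.5 times smaller, and the correlation with length was then -0.127. The 2 libraries were picked for this difference, so smaller medians for lists of short genes follow from the choice. With 1 library left out the correlation ranged from -0.374 (SFN-fed cKOAstro replicate 5) to -0.199 (SFN-fed cKOAstro replicate 1). It was -0.315 without SFN-fed cKOAstro replicate 4 and -0.256 without ConAstro replicate 1. 

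**Figure D4:**
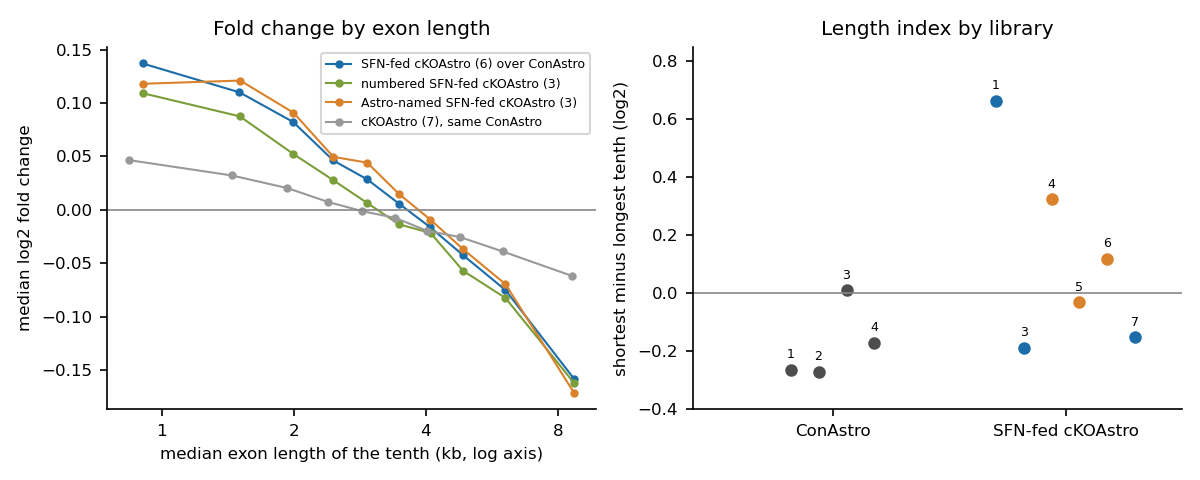
Left, median log2 fold change against ConAstro of genes in 10 groups of exon length (log axis, kb) for all 6 (blue), the numbered (green) and the Astro-named (orange) SFN-fed cKOAstro libraries and for cKOAstro (grey), falling from 0.137 in the shortest to -0.158 in the longest bin for the 6 SFN-fed cKOAstro libraries. Right, the shortest-minus-longest difference (log2) of each library, numbered by replicate, with replicates 1 and 4 of SFN-fed cKOAstro highest (dark grey ConAstro, blue numbered names, orange Astro names).

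Beyond the lists, the genes with the lowest p among those whose groups did not overlap were taken, 10 in each direction with a mean of at least 1 CPM. None passed the adjusted test in edgeR, and their values are not set against genes of the same exon length.

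Utp14b, a component of the small-subunit processome, had the lowest p of the 20. It measured 45.6, 37.9, 34.5 and 36.4 CPM in ConAstro and 17.3 to 29.1 CPM, median 19.3, in SFN-fed cKOAstro. Every SFN-fed cKOAstro library lay below every control. The difference was -0.88 ± 0.15, which is 0.544 of the control level (0.432 to 0.686, edgeR unadjusted p = 0.000126, adjusted p = 0.418). It passed the adjusted test when replicate 7 was left out (-1.01). In cKOAstro against the same controls it was at -0.43 ± 0.21, with a range of 17.3 to 39.6 CPM. The library left out, with the control level of Aldh7a1, measured 18.7 CPM. Utp14b (chromosome 1, 78658038 to 78671512, plus strand) lies within Acsl3 on the same strand, so reads of the 2 genes can be mixed, and Acsl3 itself was at 0.05 ± 0.11.

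The other genes with lower values included Syne2 (nesprin-2, which links the nucleus to the cytoskeleton) at -0.58 ± 0.15, Sema5b, a semaphorin guidance protein, at -0.44 ± 0.11, and Ptpn13, a protein tyrosine phosphatase, at -0.37 ± 0.10. Ttc14 was at -0.34 ± 0.08. The non-coding E030003E18Rik was at -0.68 ± 0.15, Gm16386 at -0.79 ± 0.18, and the zinc finger genes Etohi1 (Zfp971 in RefSeq) and Zfp738 at -0.59 ± 0.15 and -0.36 ± 0.10. Syne2 measured 84.8, 101, 104 and 95.3 CPM in ConAstro and 44.4 to 76.8 CPM in SFN-fed cKOAstro, and 50.6 CPM in the library left out. Sema5b measured 22.9 CPM in the library left out, between 21.5 CPM in the highest SFN-fed cKOAstro and 24 CPM in the lowest ConAstro library.

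The genes with higher values included several enzymes. Idh2, the mitochondrial isocitrate dehydrogenase that makes NADPH, measured 130, 140, 141 and 139 CPM in ConAstro and 149 to 200 CPM, median 171, in SFN-fed cKOAstro (0.33 ± 0.09, edgeR unadjusted p = 0.00452, adjusted p = 0.74). It stood at 0.25 ± 0.09 in cKOAstro and at 182 CPM in the library left out. Bckdha, of the branched-chain keto acid dehydrogenase, was at 0.26 ± 0.07, Gsto1, an omega-class glutathione transferase, at 0.31 ± 0.09, and Selenbp1, a selenium-binding protein, at 0.22 ± 0.06. Eif3f, a translation initiation factor, was at 0.27 ± 0.07. Spag7 and Ccdc85b were at 0.27 ± 0.07 and 0.41 ± 0.11, 2210016L21Rik at 0.36 ± 0.10, and AI507597 at 1.60 ± 0.34 from 0.469 to 0.942 CPM in ConAstro to 1.07 to 3.02 CPM. Rrs1, given above, completes the 10. Without SFN-fed cKOAstro replicates 1 and 4, Eif3f was at 0.19, Bckdha at 0.18 and Ccdc85b at 0.30, while Gsto1 was at 0.31 and Idh2 at 0.35. AI507597, Ccdc85b, Gsto1, 2210016L21Rik, Bckdha and Ttc14 overlap a protein-coding gene on the opposite strand, so their counts are uncertain as well.

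Markers of glial activation and of other cells were scattered between libraries. Of 14 reactive astrocyte genes 6 lay above 0, with a median of -0.03, which was -0.07 with all 7 libraries. Gfap, the intermediate filament of reactive astrocytes, measured 130, 101, 177 and 123 CPM in ConAstro and 79.1 to 159 CPM, median 108, in SFN-fed cKOAstro (-0.26 ± 0.22, edgeR adjusted p = 0.78). Lcn2 was at 0 in ConAstro replicates 1 and 4 and at 2.43 CPM in SFN-fed cKOAstro replicate 7, against 0.0427 to 0.244 CPM in the other 5. Immediate early and heat shock genes, which respond to dissociation, had a median of 0.10, and the sums ran from 1350 to 2110 CPM in ConAstro and 1280 to 2080 CPM in SFN-fed cKOAstro. Without ConAstro replicate 1 their median was -0.04, and with all 7 SFN-fed cKOAstro libraries it was 0.02.

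Antigen presentation and interferon genes had a median of 0.06, with 14 of 22 above 0, and with all 7 libraries a median of -0.0021 with 11 above 0. In the 3 numbered libraries the median was 0.40 with 21 of 22 above 0, against 46.9% of all genes there, and in the 3 Astro-named libraries it was -0.36 with 1 above 0. The summed level of these 22 genes was 1210, 814 and 832 CPM in numbered replicates 1, 3 and 7. It was 550 to 566 CPM in the Astro-named libraries and 512 to 883 CPM in ConAstro. Microglia markers split by kind of name in the same direction, but with a wider spread among the numbered libraries. Their median was -0.19 in the 6 libraries, -0.35 with all 7, 0.55 in the numbered and -2.11 in the Astro-named libraries, and their summed level was 912, 2880 and 3070 CPM at the lowest, median and highest numbered library, 280 to 520 CPM in the Astro-named libraries and 1270 to 1910 CPM in ConAstro. No microglia marker was at 0 in any library. Csf1r, the microglial growth factor receptor, ranged from 401 to 607 CPM in ConAstro and from 89.1 to 949 CPM in SFN-fed cKOAstro. The part of microglial RNA in the interferon values was not tested.

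Oligodendrocyte markers had a median of 0.31, -0.01 in the numbered and 0.59 in the Astro-named libraries. Their sum was 24500 to 28600 CPM in ConAstro, close to that of the astrocyte markers given below. It was 23900 to 28300 CPM in the numbered and 32500 to 57000 CPM in the 3 Astro-named libraries, which all lay above every control. Mog, a surface protein of myelin, measured 580, 536, 501 and 465 CPM in ConAstro and 492 to 1020 CPM, median 543, in SFN-fed cKOAstro, with replicate 4 highest. Neuron markers had a median of 0.27, which became 0.06 when ConAstro replicate 4 and 0.57 when ConAstro replicate 1 was left out, and a sum of 233 to 624 CPM in ConAstro and 197 to 778 CPM in SFN-fed cKOAstro. The endothelial sum was 167 to 456 and 137 to 576 CPM. The mural cell sum was 954 to 1390 and 664 to 1580 CPM, the fibroblast sum 115 to 126 and 75.1 to 164 CPM, and the oligodendrocyte precursor sum 93.1 to 286 and 112 to 277 CPM. The red blood cell sum was at most 18.9 CPM, with up to 4 of its 5 markers at 0. For each of these lists the groups overlapped. Astrocyte markers summed to 27000 to 33400 CPM in ConAstro and 23500 to 33800 CPM in SFN-fed cKOAstro, with the 3 Astro-named libraries at 23500 to 28300 CPM.

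Motile cilium genes, which mark ependymal cells, had values below 0 in 22 of 22 genes, with a median of -0.28. This rested on ConAstro replicate 3, whose sum was 1790 CPM against 635 to 728 CPM in the other 3 controls and 551 to 1350 CPM in SFN-fed cKOAstro. Without that library the median was 0.18, the opposite direction. Dnah5, an outer-arm dynein, measured 33.7, 31.5, 88.7 and 31.7 CPM in ConAstro and 18 to 61 CPM in SFN-fed cKOAstro. Ependymal markers behaved alike, with a median of -0.13 and 0.39 without ConAstro replicate 3. In cKOAstro against the same controls the cilium median was 0.26. Voltage-gated Na+ channels, a neuronal and glial family, had a median of -0.04 over the 10 of 13 tested, 0.24 without ConAstro replicate 1 and 0.02 with all 7 SFN-fed cKOAstro libraries.

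**Figure D5:**
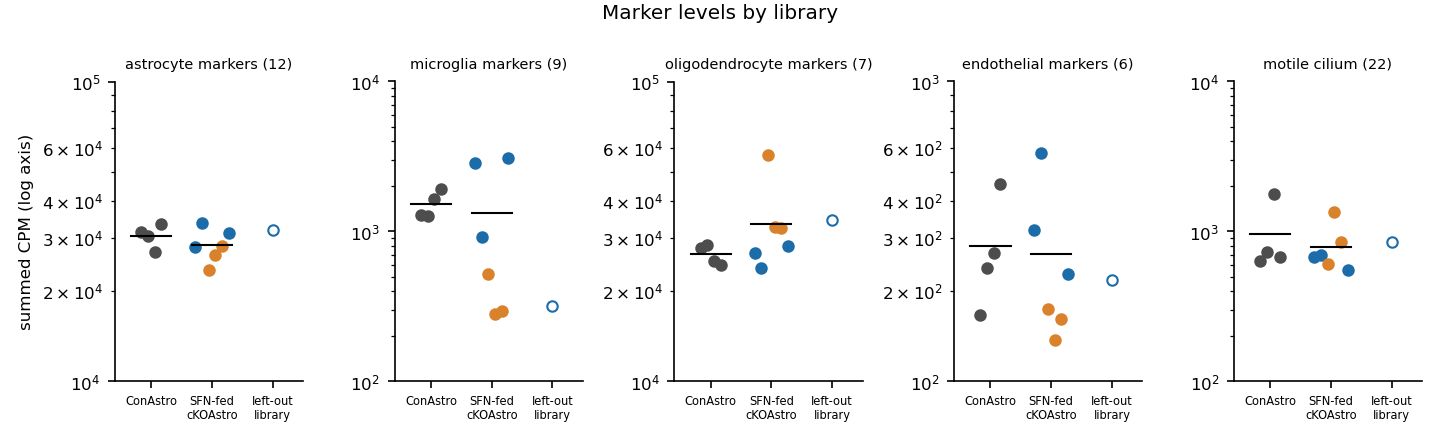
Summed CPM of marker lists (number of genes in parentheses) in each library on log axes. Grey is ConAstro, blue and orange are numbered and Astro-named SFN-fed cKOAstro libraries, the open point is the library left out, and lines are means. Microglia markers split SFN-fed cKOAstro by name, from 280 to 3070 CPM, and 1 ConAstro library at 1790 CPM carries the motile cilium genes.

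Within SFN-fed cKOAstro the libraries differed by the kind of name. Between the 3 Astro-named and the 3 numbered libraries, 300 of 16605 genes passed an adjusted p of 0.05 (1.81%), 37 higher and 263 lower in the Astro-named libraries (edgeR). No gene passed without replicate 1, 5, 6 or 7, while 441 passed without replicate 3 and 610 without replicate 4. Against ConAstro, the numbered libraries alone gave 2 called genes, both among the 3 that chose the libraries, with 489 at an unadjusted p under 0.05, and replicates 1 and 7, which share the prefix of the controls, gave 2 and 1157. Principal components were computed from log2 CPM of 14046 genes, and the first held 36.9% of the variance. The 3 Astro-named libraries and the library left out lay at 15.7 to 41.9 on it, and the 4 ConAstro and 3 numbered SFN-fed cKOAstro libraries at -30.5 to -8.49. The library left out, at 33.9, has a numbered name with the prefix of the controls. Its total was 135289124 counts, against 108448629 to 140464734 in the Astro-named libraries and at most 95781919 in the other numbered libraries shown here. The reason was not tested.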

How the data were processed

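Polyadenylated RNA of cortical cells sorted with anti-ACSA-2 beads was sequenced in paired ends. The authors aligned reads to mm10 with STAR and deposited raw counts per gene symbol, with no normalization or pooling. The STAR version, annotation and strand setting are not given in the sources used here. Of 24411 symbols, 23376 matched GENCODE M21 (GRCm38). No pair of replicates was alike within counting noise (lowest chi-square per degree of freedom 62.3).

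Counts of 6 SFN-fed cKOAstro and 4 ConAstro libraries were fitted alone in edgeR 4.0.16 (quasi-likelihood test, R 4.3.3, limma 3.58.1), with TMM normalization, filterByExpr (minimum count 10, total 15) and Benjamini-Hochberg adjustment over all genes and a threshold of 0.05. SE is the fold change over the square root of F. The fit was tested on simulated counts. Alternatives were DESeq2 1.42.0, limma-voom, RLE, other filters, libraries and covariates, and thinned counts.

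Named genes were those of the study, the Na,K-ATPase and lysine lists, selected NRF2 and K+ genes, up to 4 members per list with the lowest p, every called gene, and 10 non-overlapping genes per direction. Some of these genes are not reported here. Members and lists were chosen with earlier results of these data known.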

Additional observations from a re-analysis of the deposited data

Results flagged for a closer look

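Each named gene and list was checked, within the 4 ConAstro and the 6 SFN-fed cKOAstro libraries, for a highest or lowest library that stood far from the rest (the gap to the nearest library over the range, past Dixon's 95% critical value). Chance alone gives about 1 in 20. Of 312 checks of genes 14 passed, which is near that share, and of 62 checks of lists 6. Genes of 1 family in 1 library, such as the cilium genes below, are not separate cases. ConAstro replicate 3 accounted for 9 and SFN-fed cKOAstro replicate 4 for 6.

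ConAstro replicate 3 stood apart in cilium genes, with Dnah5 at 88.7 CPM (31.5 to 33.7 in the other controls), Ccdc153 at 163 CPM (49 to 52.3), Tmem212 at 47.7 CPM (17.8 to 18.7), Dnah6 at 127 CPM (49.6 to 52.5) and Hydin at 82.2 CPM (30.7 to 34.2). Its motile cilium sum was 1790 CPM and its ependymal marker sum 665 CPM. It also held Dtna, a dystrobrevin, at 261 CPM (340 to 359) and Glrx5 at 25.5 CPM (22.5 to 22.8).

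SFN-fed cKOAstro replicate 4 stood apart with Mog, a myelin gene, at 1020 CPM (492 to 615 in the other 5), and its oligodendrocyte marker sum was 57000 CPM. Its sum of NRF2 targets was 7810 CPM (5100 to 5970) and that of voltage-gated Na+ channels 60.5 CPM (125 to 162). Kcnk5 was at 12 CPM (3.82 to 5.51) and Pdxp, the pyridoxal phosphatase, at 12.6 CPM (22.3 to 29).

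The other 5 cases came from 4 libraries. SFN-fed cKOAstro replicate 7 held Nqo1 at 6.46 CPM (9.03 to 10.3) and Acta2, smooth muscle actin, at 28 CPM (48.1 to 53.5). Replicate 6 had a sum of immediate early and heat shock genes of 1280 CPM (1750 to 2080). ConAstro replicate 2 held Kcnk1 at 340 CPM (365 to 368) and ConAstro replicate 4 held Cx3cr1, a microglial receptor, at 258 CPM (165 to 170).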

How the results depend on the processing

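At an adjusted p under 0.05, 2 genes passed as the comparison was made, both among the 3 that chose the libraries, so the count says nothing of stability. It was 0 with the 7 libraries as labelled, which add back the library removed on those genes, and 1 with the replicate block. DESeq2 called 9. Leaving out single libraries gave 2 to 3 called genes. The count at an unadjusted p under 0.05, 909 in the comparison as made, was 1453 with the 7 libraries, 2428 with limma-voom, 2040 with all 4 groups in 1 fit, 489 among numbered libraries, 547 with the kind of name as a covariate, and 515 to 1866 when single libraries were left out (lowest without ConAstro replicate 2, highest without SFN-fed cKOAstro replicate 3). Genes with an interval within 1.5-fold numbered 9517 and stayed within 1.5 times of that in every alternative but the replicate block. The difference in log2 total was 0.244 among numbered libraries and 0.219 in those that share the controls' prefix (exact permutation p = 0.0571 and 0.0667, the second the smallest possible), and 0.345 to 0.486 when single libraries were left out. Genes called between Astro-named and numbered SFN-fed cKOAstro libraries numbered 1297 with DESeq2, 1149 with limma-voom, 456 with no filter beyond 1 count, and 0 to 610 when single libraries were left out. The cause of these shifts was not tested.

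Replicate numbers 1, 3 and 4 occur in both groups, but libraries that share a number did not deviate together (correlations -0.227, -0.0755 and 0.139), and none of the 3 controls correlated best with its own number. With the replicate block 1 gene was called, 374 had an unadjusted p under 0.05 and 4844 an interval within 1.5-fold.

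Of 159 named genes beside the 3 that chose the libraries, 59 changed sign under at least 1 of 22 alternatives and 6 passed the threshold under at least 1, all of them with DESeq2 and Utp14b also without SFN-fed cKOAstro replicate 7. Of 31 lists, 18 changed the sign of the median under at least 1 of 23 alternatives. The ribosomal, respiratory, folding, ribosome biogenesis and NRF2 lists, and those for K+ and water buffering and glutamate handling, did not. The fits without replicates 1 and 4 and relative to exon length were chosen after the data were seen. Thinning all libraries to 74771451 counts left 2 called genes and 884 at an unadjusted p under 0.05, against 909 without thinning. Thinning evens out counting noise only, and other differences between libraries that go with depth were not tested. The median SE of 0.157 exceeds the median absolute difference of 0.138.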
